A study of Arabidopsis thaliana with 6 samples.

Results

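Pectin methylesterases remove methyl groups from homogalacturonan, the main pectin of the plant cell wall. The 31 genes described here are a list of Arabidopsis thaliana pectin methylesterases that leaves out VGD1 (VANGUARD1) and its pollen relatives. The list is not the whole family: PME7 and PME38, for example, are not in it. They were picked by locus identifier out of 32833 loci counted in each of 6 RNA-seq libraries, and the list includes PME3, PME5, PME17 and PME35. All 31 identifiers were found, and 20 of them passed the filter on low counts.

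Pectin is exported to the wall highly methylated, and the removal of its methyl groups there changes both its stiffness and its access to enzymes that cut it. Most plant pectin methylesterases are made with an inhibitor-like stretch ahead of the enzyme, which subtilisin proteases cut off, and separate inhibitor proteins can block the mature enzyme. In the inflorescence meristem, the dome of dividing cells at the shoot tip, demethylated pectin marks places where organs form, and PME5 acts there under restriction by the homeobox gene PNY (PENNYWISE).

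RNA was poly(A)-selected from dissected inflorescence meristems of 15 cm tall stems, after flower primordia past the earliest stages had been removed. The 3 libraries labelled VGD1 have the genotype pCLV3>>erTurquoise, >>VGD1, in which the stem-cell promoter CLV3 drives both a fluorescent reporter and VGD1 through the dexamethasone-gated factor GR-LhG4. The 3 control libraries have the genotype pCLV3>>erTurquoise, the reporter alone, and were also treated with dexamethasone. For the time from induction to harvest the labels disagree, naming both 72 hours and 48 hours, and for dexamethasone they name both 30 µM and 30 mM. Plant ages, the number of plants pooled and whether replicates came from separate batches are not given in the labels, so p-values cover only the spread among these 6 libraries, which may be technical.

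Library totals lay between 18432365 and 19394881 counts in the libraries labelled VGD1 and between 6638772 and 24437872 counts in the controls. The lowest total was that of control replicate 3. VGD1 itself stood at 7.21 ± 0.67 CPM (counts scaled to the size of the library) in the libraries labelled VGD1, against 9.63 ± 4.24 CPM in the controls (SD, n = 3 each). Its RNA therefore did not mark the induced group, and every direction below is that of the labels. The meristem genes STM and KNAT1 were well expressed in each library, at 60.3 CPM or more. The stem-cell peptide gene CLV3 had 3, 8 and 11 counts in the libraries labelled VGD1 and 0 counts in each of the controls. With so few counts CLV3 did not pass the filter and was not tested between groups.

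The question of which of the 31 genes the dissected meristem samples express was examined first. RNA of 11 genes of the tapetum, a cell layer of older anthers, was also present in them. It summed to 319 to 968 CPM in the libraries labelled VGD1 and 944 to 1159 CPM in the controls. The levels are therefore those of the dissected tissue, and which cells expressed each gene was not resolved. Levels are given as CPM, scaled with TMM factors, per kilobase of annotated exon, so that genes of different length can be set side by side. By mean level PME5 stood above all others, followed by PME1. Below them came PME3 and AT3G49220, and then AT3G10720, PME31, PME41, PME44 and AT5G09760 at similar levels. A mean of at least 1 CPM was reached by 18 of the 31 genes, and 16 reached it in every library.

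PME5 (AT5G47500), the pectin methylesterase known for its part in organ initiation at the shoot tip, stood at 161, 147 and 163 CPM per kilobase in the libraries labelled VGD1. In the controls it stood at 152, 149.8 and 156 CPM per kilobase. The ranges of the groups overlapped, and all 6 libraries lay within a narrow band. The mean level per kilobase of PME5 was above that of 97.0% of the 19719 genes tested. Its lowest library lay above the highest library of every other gene of the 31.

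PME1 (AT1G53840) stood at 59.3, 61.8 and 62.5 CPM per kilobase in the libraries labelled VGD1, against 79.8, 66.7 and 51.8 CPM per kilobase in the controls. The controls were spread more widely and enclosed the libraries labelled VGD1. Every library of PME1 lay below every library of PME5 and above every library of PME3. The ranges of PME1 and AT3G49220 met, as the highest library of AT3G49220 stood at 51.9 CPM per kilobase.

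PME3 (AT3G14310), a widely expressed wall enzyme known from roots, hypocotyls and responses to pathogens, averaged 35.0 ± 5.60 CPM per kilobase in the libraries labelled VGD1 and 46.2 ± 1.76 CPM per kilobase in the controls (SD, n = 3 each). AT3G49220 averaged 40.3 ± 10.9 CPM per kilobase in the libraries labelled VGD1 and 40.2 ± 5.04 CPM per kilobase in the controls. By library it stood at 30.3, 51.9 and 38.8 CPM per kilobase in the libraries labelled VGD1 and at 43.7, 42.4 and 34.4 CPM per kilobase in the controls, which lay inside the wider range of the libraries labelled VGD1. PME3 and AT3G49220 did not differ beyond their spread over the 6 libraries.

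The next 5 genes by mean level overlapped from neighbour to neighbour, without a gap to the genes above. The highest library of AT3G10720, at 35.1 CPM per kilobase, lay above the lowest of AT3G49220 (30.3) and of PME3 (30.4). AT3G10720 had a mean over 6 libraries of 25.8 CPM per kilobase, PME31 of 25.6, PME41 of 24.8, PME44 of 22.5 and AT5G09760 of 20.2. PME31, known for a part in salt tolerance, varied little, at 34.4, 32.4 and 31.4 CPM, not divided by length, in the libraries labelled VGD1 and 30.9, 31.9 and 31.8 CPM in the controls. PME41, known for a part in cold responses, stood at 30.9, 23.8 and 24.3 CPM per kilobase in the libraries labelled VGD1 and at 26.4, 24.3 and 18.9 CPM per kilobase in the controls. For both genes the groups overlapped. AT5G09760 did not overlap with the gene below it, PMEPCRA, whose mean was 12.8 CPM per kilobase.

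PMEPCRA, AT1G02810 and AT5G19730, with means of 12.8, 12.6 and 11.5 CPM per kilobase, lay near the median of all tested genes, which was 11.9 CPM per kilobase. Below them lay AT5G64640, PMEPCRF, PME12 and AT3G43270, between 8.38 and 4.25 CPM per kilobase. AT1G05310, with a mean of 1.89 CPM per kilobase, PME35, AT4G02320 and AT3G60730 closed the list of genes that passed the filter.

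PME35 (AT3G59010), known for its part in the strength of the stem, was near the lower end. It stood at 2.60, 0.729 and 1.72 CPM in the libraries labelled VGD1 and at 3.23, 2.57 and 1.20 CPM in the controls. The groups overlapped, and the highest and lowest of the libraries labelled VGD1 differed 3.56-fold, the widest spread within that group among the 20 tested genes.

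**Figure D1:**
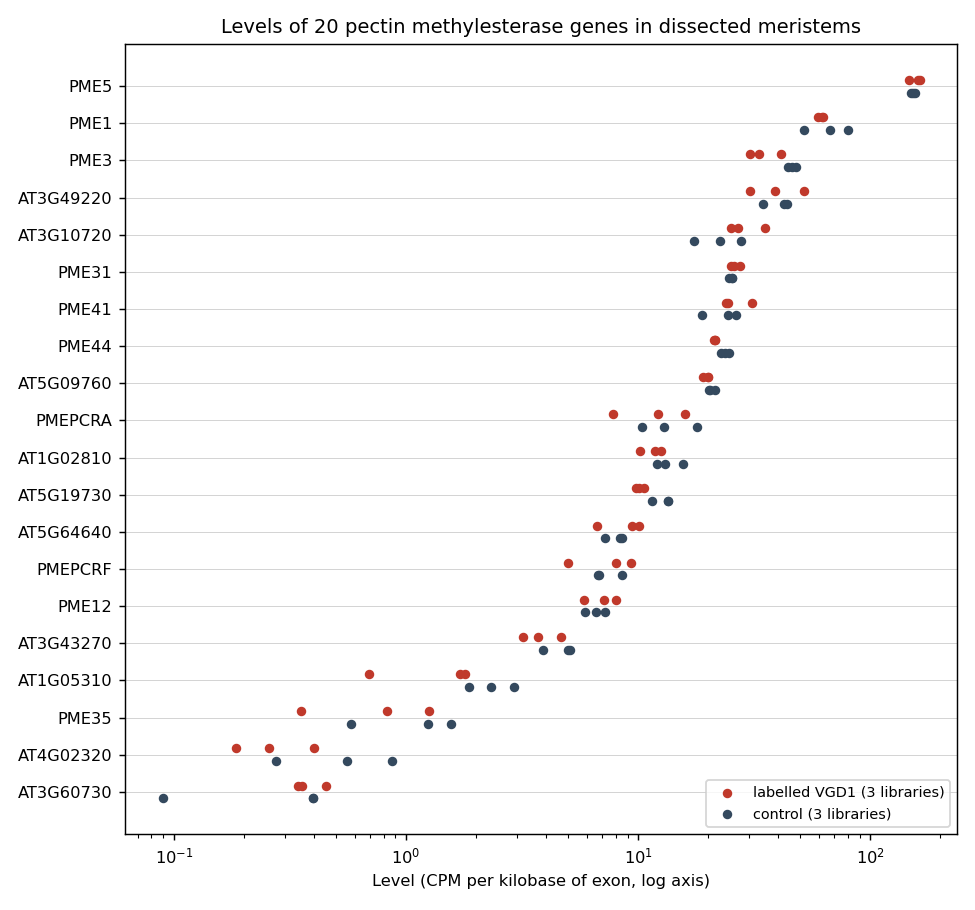
Level of the 20 tested pectin methylesterase genes in CPM per kilobase of exon (horizontal log axis), with 1 point per library, libraries labelled VGD1 in red above and controls in dark blue below in each row. PME5 lies between 147 and 163 CPM per kilobase in all 6 libraries, to the right of every other gene.

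The other 11 genes held at most 16 counts over all 6 libraries together. PME17 (AT2G45220), known for its induction by pathogens and its expression in roots, had 0, 2 and 0 counts in the libraries labelled VGD1 and 10, 0 and 0 counts in the controls. PME2 had 10 counts in all. RHS12, named for its expression in root hairs, and AT5G04960 had no count in any library, which allows up to 0.155 to 0.163 CPM in the libraries labelled VGD1 and up to 0.123 to 0.452 CPM in the controls (3 counts of each total, counting error only). These limits take each count as a separate event. They would be higher if both reads of a pair were counted, which the labels do not say. PME39, AT2G47550, AT5G04970, AT5G61680, AT2G36710, ATPMEPCRD and AT1G23200 had between 2 and 16 counts in all. At this depth none of these 11 can be compared between groups.

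Genes that lie next to each other on the chromosome differed widely in level. PME1 had 16232 counts over the 6 libraries and its neighbour PME2 had 10. AT3G10720 had 8992 counts and its neighbour RHS12 had 0. PME41 had 5608 counts and its neighbour AT4G02320 had 76. AT5G04960 and AT5G04970, also neighbours, had 0 and 2 counts. Stretches of 50 bases within single annotated exons were searched for exact copies among related genes, and 30 of the 31 genes had none. Stretches across exon junctions, copies with mismatches and the rest of the genome were not searched. PME44 was the exception, with 1.95% of its stretches shared with AT4G33230, which overlaps it on the other strand.

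By annotated protein length the 31 genes fell into a longer and a shorter set. The longer set of 25 genes encodes 511 to 643 residues, which leaves room for the inhibitor-like stretch, and 16 of them were tested. The shorter set of 6 genes, 317 to 407 residues, includes PME5, PME31, AT5G19730 and AT1G05310, which were tested, and AT2G36710 and AT5G61680, which were not. The shorter set held 40.6% of the summed level per kilobase of the 31 genes in the libraries labelled VGD1 and 39.4% in the controls (means, n = 3 each), most of it from PME5 and PME31.

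Added over the 31 genes, pectin methylesterase RNA came to 1000, 1053 and 1041 CPM in the libraries labelled VGD1. In the controls it came to 1139, 1066 and 973 CPM. The groups overlapped, and the controls held both the highest and the lowest library. PME5 made up 34.0%, 30.7% and 33.5% of the summed level per kilobase in the libraries labelled VGD1 and 29.1%, 30.4% and 33.9% in the controls. PME5, PME1 and PME3 together made up 50.6% to 54.8% in the libraries labelled VGD1 and 53.1% to 54.9% in the controls.

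**Figure D2:**
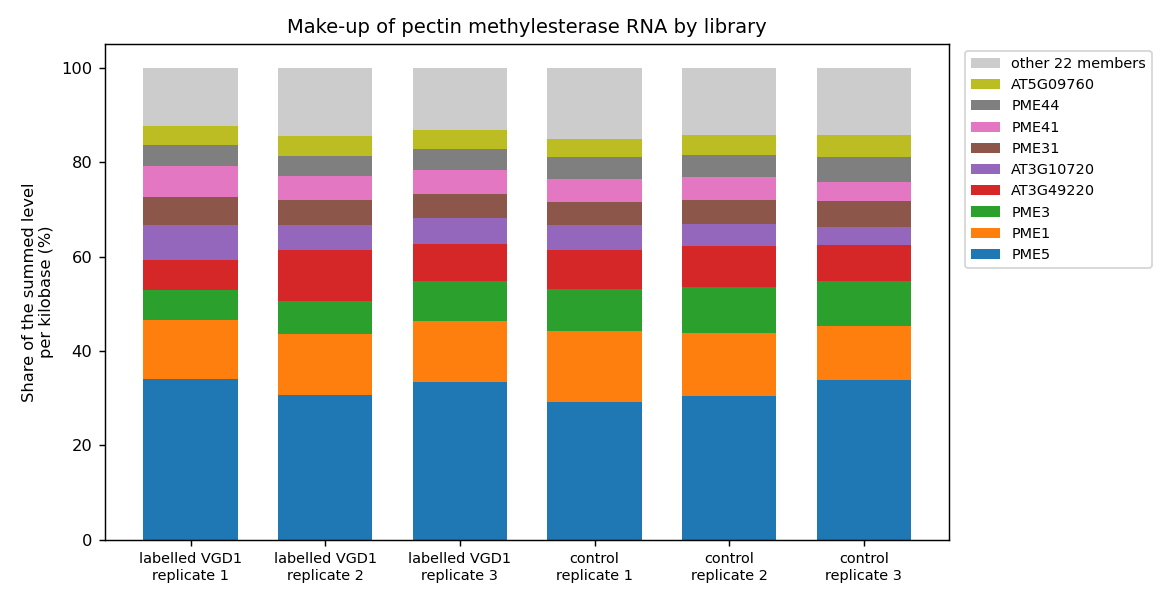
Share of each of the 9 highest genes, and of the other 22 together, in the summed level per kilobase of the 31 genes (vertical axis, percent), with 1 bar per library, libraries labelled VGD1 on the left. PME5 is the lowest block in every bar, at 30.7% to 34.0% in the libraries labelled VGD1 and 29.1% to 33.9% in the controls.

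The order of levels depended in part on the length used. Per kilobase of coding sequence, PME5 was again first, at 207 CPM per kilobase, but AT3G49220 came second at 82.9, ahead of PME1 at 80.5 and PME3 at 53.0. The annotated exons of AT3G49220 and PME44 are long relative to their coding sequence, and PME44 moved to the fifth place with 51.0 CPM per kilobase.

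The comparison of libraries labelled VGD1 with controls asks whether stem-cell expression of another pectin methylesterase goes with a change in the plant's own enzymes across the meristem. None of the 20 tested genes passed an adjusted p of 0.05 in edgeR's quasi-likelihood test, in DESeq2 or in limma-voom. Over all 19719 genes, 0.416% passed in the edgeR test, 0.314% lower and 0.101% higher in labelled libraries. At an unadjusted p under 0.05 there were 3 of the 20 genes, PME3, AT5G19730 and AT1G05310, all lower in the libraries labelled VGD1, against 13.6% of all tested genes. The log2 fold change was below 0 in 12 and above 0 in 8 of the 20, with a median of -0.10, and the median of all tested genes was 0.00.

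In 5 of the 20 genes the ranges of the groups did not overlap, and each of the 5 was lower in the libraries labelled VGD1. Over all tested genes the groups did not overlap in 17.2%, with the libraries labelled VGD1 below the controls in 9.02% and above them in 8.17%. The 5 genes were PME3, AT5G19730, AT1G05310, PME44 and AT5G09760. With scaling by library totals AT5G09760 overlapped and 4 genes remained.

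PME3 had the smallest p of the 31 genes. It stood at 70.7, 77.3 and 95.8 CPM in the libraries labelled VGD1, against 107, 111 and 103 CPM in the controls. The controls lay close together, and the libraries labelled VGD1 were spread over a range below them. The log2 fold change was -0.40 (SE 0.11, 95% interval from -0.66 to -0.15), with an edgeR adjusted p of 0.181. Leaving out 1 library at a time gave log2 fold changes from -0.54 to -0.31 and adjusted p from 0.0878 to 0.630.

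AT5G19730, one of the shorter enzymes, stood at 19.7, 18.7 and 18.2 CPM in the libraries labelled VGD1, against 25.1, 21.4 and 24.9 CPM in the controls. Here the libraries labelled VGD1 were the tighter group. The log2 fold change was -0.32 (SE 0.12, edgeR adjusted p = 0.263). AT1G05310, also a shorter enzyme, stood at 0.999, 2.60 and 2.48 CPM in the libraries labelled VGD1, against 3.37, 4.22 and 2.70 CPM in the controls. Replicate 1 labelled VGD1 lay well below the others, and the nearest libraries of the groups were almost level. Its log2 fold change was -0.85 (SE 0.35, edgeR adjusted p = 0.324), and -0.51 without that library, with an unadjusted edgeR p of 0.105. Leaving out other libraries 1 at a time gave values from -1.07 to -0.66.

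PME44 stood at 76.6, 75.7 and 76.6 CPM in the libraries labelled VGD1 and at 84.6, 81.3 and 87.9 CPM in the controls. The difference was small next to that of PME3, with a log2 fold change of -0.14 (SE 0.08, edgeR adjusted p = 0.473), and both groups were tight. AT5G09760 stood at 43.8, 46.0 and 45.6 CPM in the libraries labelled VGD1 and at 46.4, 47.0 and 49.2 CPM in the controls, with a log2 fold change of -0.07 (SE 0.09). AT1G02810 overlapped between groups, at 21.8, 25.3 and 26.6 CPM in the libraries labelled VGD1 and 33.3, 27.9 and 25.8 CPM in the controls.

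AT3G10720 had the most positive log2 fold change, 0.34 (SE 0.18, edgeR adjusted p = 0.473). It stood at 106, 76.0 and 81.1 CPM in the libraries labelled VGD1 and at 84.0, 68.4 and 52.8 CPM in the controls. The groups overlapped through control replicate 1. The log2 fold change was 0.17 without replicate 1 labelled VGD1, 0.21 without control replicate 3 and 0.52 without control replicate 1. PME41 had a log2 fold change of 0.16 (SE 0.14), also with overlapping groups, and of 0.03 without replicate 1 labelled VGD1, 0.06 without control replicate 3 and 0.27 without control replicate 1.

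**Figure D3:**
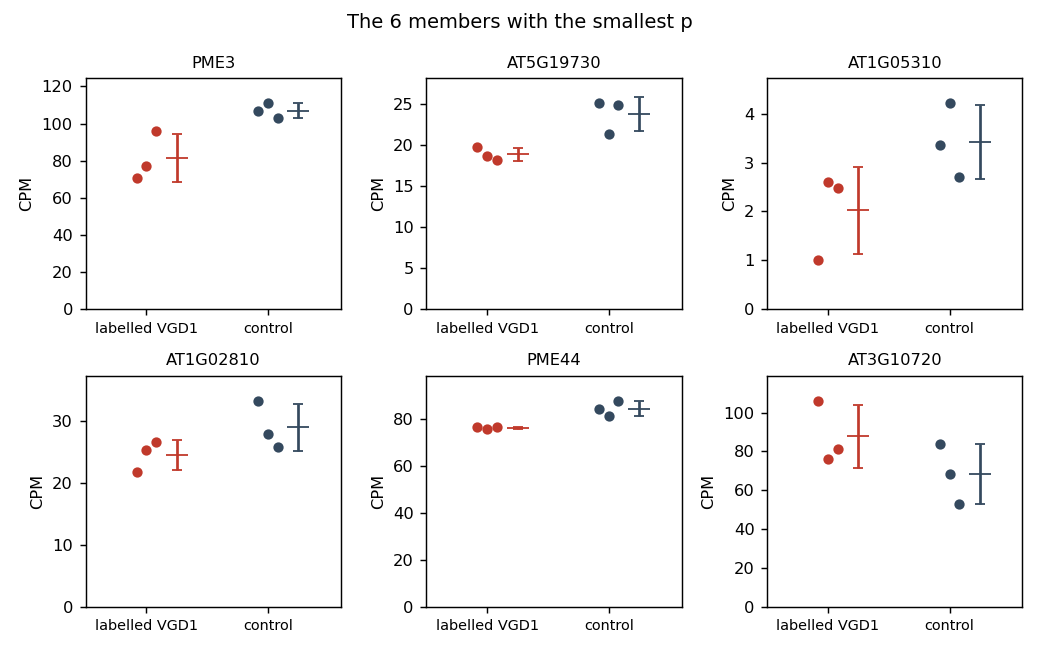
CPM per library of the 6 genes with the smallest p (vertical axes start at 0), with points for single libraries and, beside them, the mean and SD of 3 libraries, labelled VGD1 on the left. PME3 lies at 70.7 to 95.8 CPM in the libraries labelled VGD1 and at 103 to 111 CPM in the controls, with an edgeR adjusted p of 0.181.

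For most of the tested genes the data bound the size of a difference between the groups in bulk tissue, by intervals not adjusted for the number of genes. A difference confined to some of the cells was not resolved. PME5 had a log2 fold change of 0.04 with a 95% interval from -0.14 to 0.23, that is, between 0.906-fold and 1.17-fold of the controls. PME31 had an interval from 0.898-fold to 1.20-fold. The interval lay within a 2-fold difference either way in 16 of the 20 genes and within 1.5-fold in 12. The 4 genes with wider intervals were AT1G05310, PME35, AT4G02320 and AT3G60730, the genes with the lowest levels.

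**Figure D4:**
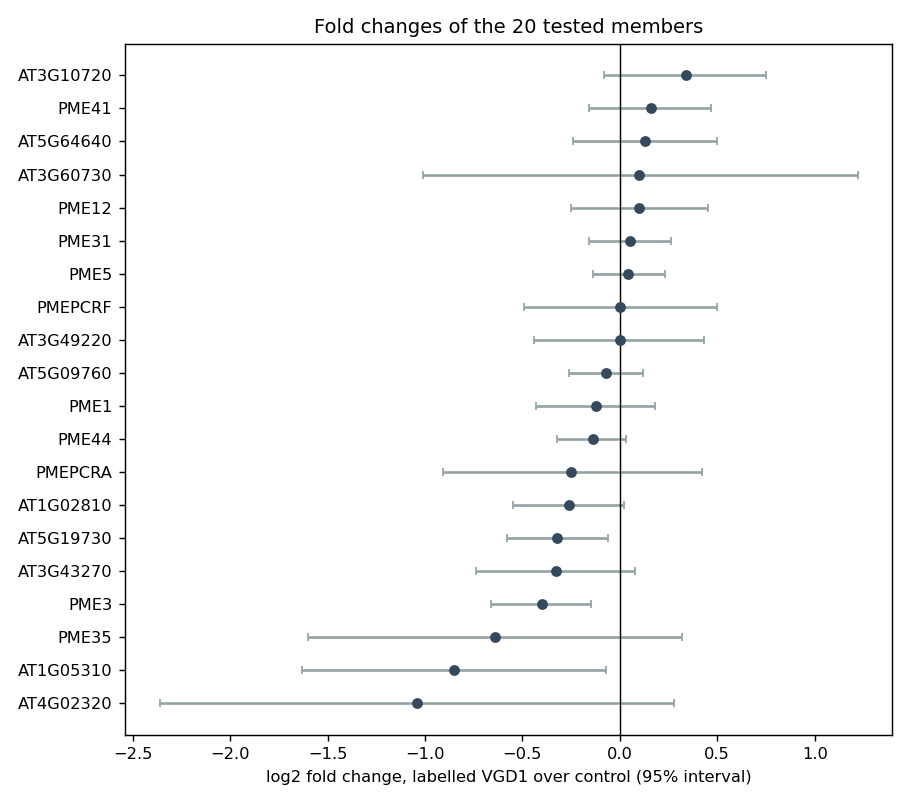
Log2 fold change of the libraries labelled VGD1 over the controls for the 20 tested genes (horizontal axis), with 95% intervals from the edgeR fit (n = 3 each). Intervals of PME3, AT5G19730 and AT1G05310 lie below 0 before adjustment for all genes tested, and PME5 lies at 0.04 with an interval from -0.14 to 0.23.

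The genes differed in how closely replicates matched. The within-group SD of log2 CPM ranged from 0.04 for PME44 and AT5G09760 to 0.63 for PME35, with a median of 0.23 over the 20 genes and 0.18 over all tested genes. Replicate 1 labelled VGD1 was the lowest or the highest of its group in 18 of the 20. In 5 genes it was lowest and replicate 2 highest, among them AT3G49220, at 121, 207 and 154 CPM, and PMEPCRA, at 15.4, 31.2 and 24.0 CPM. In another 5 it was highest and replicate 2 lowest, among them AT3G10720, PME41 and PME35. These orders were not counted over all tested genes, so they cannot be read as a trait of the 20 genes.

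Markers of neighbouring tissues were summed in the same libraries, and none of the genes of the xylem, photosynthesis, phloem, tapetum, meristem and pollen lists passed the edgeR threshold. The summed level of 11 xylem and secondary-wall genes was 120.0, 199 and 142 CPM in the libraries labelled VGD1 and 235, 275 and 197 CPM in the controls. All 10 of its tested genes had a log2 fold change below 0, and SND1 had no count in any library. The summed level of 10 photosynthesis genes was 14074 to 17635 CPM in the libraries labelled VGD1 and 16335 to 23120 CPM in the controls, and all 10 were below 0. That of 6 phloem genes was 179 to 208 CPM in the libraries labelled VGD1 and 204 to 229.9 CPM in the controls, with 5 of 6 below 0. The groups overlapped in all 3 sums, each time through control replicate 3 and replicate 2 labelled VGD1, and for phloem through control replicate 1 as well.

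The summed level of 11 tapetum genes, a cell layer of older anthers, was 968, 319 and 476 CPM in the libraries labelled VGD1 and 1056, 1159 and 944 CPM in the controls, with all 11 below 0 and the groups overlapping through replicate 1 labelled VGD1. Among the libraries labelled VGD1 it was highest in replicate 1 and lowest in replicate 2, the order seen for AT3G10720 and PME41. The sums of the xylem, photosynthesis and phloem lists had the opposite order, that seen for AT3G49220. So did the meristem genes STM (60.3, 90.5 and 83.7 CPM) and KNAT1 (60.9, 111 and 87.4 CPM). Other meristem genes, CLV1, WUS, ATML1 and PDF1, had the order of the tapetum list, as did the sum of the meristem list. CLV3, UFO and LFY had neither order. Genes of both orders were thus present in the meristem list. For CLV1 the order rests on nearly level values in replicates 2 and 3 labelled VGD1, 58.3 and 58.4 CPM. The summed level of 9 meristem markers was 1602 to 1686 CPM in the libraries labelled VGD1 and 1236 to 1539 CPM in the controls, with 2 of the 8 tested genes below 0 and 6 above. Most of this sum came from the epidermal gene PDF1, with a mean of 1185 CPM in the libraries labelled VGD1 and 994 CPM in the controls, while WUS (-0.35) and KNAT1 (-0.06) had log2 fold changes below 0. That of 8 pollen genes was 19.9 to 20.3 CPM in the libraries labelled VGD1 and 15.7 to 19.0 CPM in the controls, with 2 of the 4 tested genes below 0 and 2 above. Most of it came from ANX1, with a mean of 13.6 CPM in the libraries labelled VGD1 and 11.8 CPM in the controls. The sperm-cell gene MGH3 had 0 counts in each of the libraries labelled VGD1 and 2, 0 and 2 counts in the controls. The part of these tissues in the values of PME3, AT5G19730, AT1G05310 and the other genes was not tested, and in bulk samples fewer cells of a type and less RNA per cell cannot be told apart.

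**Figure D5:**
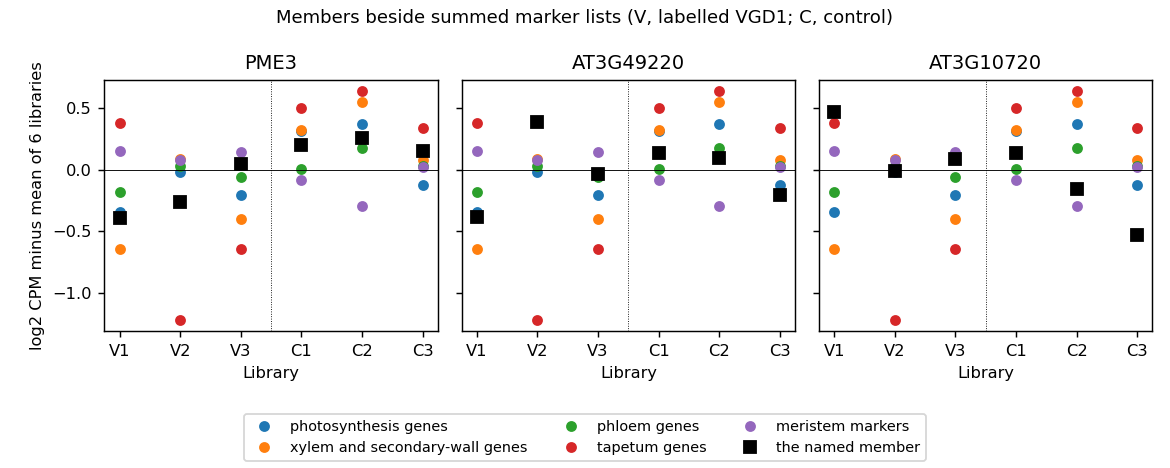
Log2 CPM relative to the mean of the 6 libraries (vertical axis) for PME3, AT3G49220 and AT3G10720 (black squares, 1 panel each) and for the summed level of 5 marker lists (coloured points), by library, V for labelled VGD1 and C for control. AT3G49220 is lowest in V1 (121 CPM) and highest in V2 (207 CPM), and AT3G10720 is highest in V1 (106 CPM).

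Genes that act on the same pectin were examined in the same fit. Of 12 inhibitors of pectin methylesterases and related proteins, 5 were tested and 1, AT5G62360, was lower past the threshold, at 19.6 ± 2.05 CPM in the libraries labelled VGD1 and 37.5 ± 7.89 CPM in the controls (SD, n = 3 each, edgeR adjusted p = 0.0484). The median log2 fold change of the 5 was -0.32. That call was lost in 7 of 14 alternatives, with an adjusted p of up to 0.262 without control replicate 2. The highest level among the 12 was that of AT5G20740, at 219 CPM per kilobase in the libraries labelled VGD1 and 213 CPM per kilobase in the controls, above PME5 on the same scale.

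Of 7 genes for the synthesis and methylation of homogalacturonan all were tested and none passed in the edgeR test, with a median log2 fold change of -0.10. QUA1, a glycosyltransferase of pectin synthesis, had the smallest p, at 145 ± 13.2 CPM in the libraries labelled VGD1 and 124 ± 2.92 CPM in the controls (edgeR adjusted p = 0.306). Of 8 polygalacturonases and pectate lyases, which cut demethylated pectin, 4 were tested and none passed, with a median of 0.01. PMR6, a pectate lyase-like gene, had the smallest p, at 115 ± 6.27 CPM in the libraries labelled VGD1 and 101 ± 9.08 CPM in the controls (edgeR adjusted p = 0.446).

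Proteases and regulators of the enzymes were likewise not past the threshold, with 4 of 4 tested and a median log2 fold change of 0.11. S1P, a subtilisin-type protease that processes pectin methylesterases, stood at 37.6 ± 2.27 CPM in the libraries labelled VGD1 and 34.1 ± 1.46 CPM in the controls (edgeR adjusted p = 0.568). PNY, the regulator of PME5, stood at 67.0 ± 3.97 CPM in the libraries labelled VGD1 and 63.6 ± 2.32 CPM in the controls (edgeR adjusted p = 0.786), with a 95% interval of the log2 fold change from -0.12 to 0.26.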

How the data were processed

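RNA-seq of dissected meristems gave 3 libraries labelled VGD1 and 3 controls, grouped and numbered by sample title. The deposited values are raw counts, whole numbers for each gene, 1 table per library. RNA STAR was the aligner, per the file headers, and TAIR10 and DESeq2 are named in the submitters' processing notes. How reads were assigned to genes and strands is not stated there, so a gene and one overlapping it on the opposite strand may share reads, which applies to 5 of the 31 genes (PME44, PMEPCRF and AT3G60730 among those tested).

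Names, lengths and neighbours came from RefSeq's TAIR10.1 annotation, which matched 32548 of 32833 loci. Its build name differs from TAIR10, so no coordinates are given, and loci without a name there are given by identifier.

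All genes were tested with edgeR 4.0.16 in R 4.3.3: TMM factors, filterByExpr (minimum count 10, minimum total 15), robust glmQLFit and glmQLFTest (two-sided), with Benjamini-Hochberg adjustment over 19719 genes and calls under 0.05. SEs come from the F statistic and 95% intervals from its degrees of freedom. CPM carry the TMM factors, and the within-group SD uses log2(CPM + 0.5). Simulated data for this comparison (19464 genes) gave calls for 12 of 49 genes changed 1.5-fold, 40 of 49 changed 2-fold, 91 of 98 changed 4-fold and 12 of 19268 unchanged. Each gene was drawn independently with its dispersion from this same fit, so shifts shared by many genes between libraries are not included. The rates are over genes of all levels and need not hold for genes with few counts.

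The 31 genes and the other lists were chosen with earlier results of these data known. Described in full were PME3, PME5, PME17, PME35, the 8 highest levels, the 6 smallest p, genes past the threshold and genes whose groups did not overlap, and in each other pectin list the called gene or the smallest p. Libraries of 1 group differed by a mean chi-square of 9.11 to 23.41 per gene, so none was a copy of another. The lowest value of any pair, 7.88, was that of replicate 3 labelled VGD1 and control replicate 3, which by this measure lay nearer to that library than to the other controls (10.32 and 9.11). The measure grows with depth, and control replicate 3 has the fewest counts. Alternatives were RLE factors, library totals, other filters, DESeq2 1.42.0, limma-voom (limma 3.58.1), a replicate block and leaving out each library. Halved counts and coding length were added after seeing the data.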

Additional observations from a re-analysis of the deposited data

How the results depend on the processing

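None of the 31 genes passed the threshold under any of the 14 alternatives, in which 18 to 29 of them were tested. PME1 changed sign without control replicate 1, with a log2 fold change of 0.04, and lay between -0.26 and 0.04 when 1 library was left out. AT3G49220, at 0.00, was at 0.01 with DESeq2, 0.03 with library totals and 0.01 without the filter, and from -0.21 to 0.17 when 1 library was left out. PMEPCRA was at 0.01 without control replicate 1 (-0.49 to 0.01 when 1 library was left out), PME12 at -0.01 without replicate 1 labelled VGD1 (-0.01 to 0.22), and AT3G60730 below 0 without replicate 3 labelled VGD1 or control replicate 3 (-0.05 to 0.24). PMEPCRF was at -0.04 with limma-voom, -0.005 with halved counts and from -0.19 to 0.22 when 1 library was left out. These 6 of the 20 tested genes turned direction in at least 1 alternative, and the other 14 did so in none in which they were tested. Without control replicate 1, 9 of the 20 tested genes were below 0. The number with a mean of at least 1 CPM stayed at 18 under other scalings and without control replicate 3. The count over all genes was 82, against 421 with DESeq2, 45 with limma-voom, 139 without the filter, and 4 to 201 when 1 library was left out (4 without control replicate 2, 12 without control replicate 1, 45 without replicate 3 labelled VGD1, 189 without control replicate 3 and 201 without replicate 1 labelled VGD1). Of the other pectin genes 1 was called, 0 with library totals or limma-voom and 0 to 1 when 1 library was left out. With the replicate number as a block, 194 genes were called. The numbers were not shown to pair libraries: deviations from the group means of same-numbered libraries correlated at -0.000215, 0.0391 and 0.102, and replicate 1 labelled VGD1 correlated best with control replicate 2 (0.038). No call on a pectin methylesterase changed with the block. The cause of these differences was not tested. Control replicate 3, with 6638772 counts, limits what can be said of genes under 1 CPM.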

Other observations

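Most low counts in the deposited tables were even numbers. Of all counts from 1 to 20 in the 6 libraries, 78.4% were even, and in each library the share lay between 77.0% and 80.9%. PME17, PME2 and the other 9 untested pectin methylesterases had even counts in every library. Neither labels nor headers say whether both reads of a pair were counted. With each count halved and rounded up, 81 genes were called over all genes, against 82 as deposited, and none of the 31 pectin methylesterases described here.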
